A study of Drosophila melanogaster with 15 samples.

Results

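In astrocytes of the adult fly brain, 39 uncharacterised genes took a higher share of transcripts at both 4 hr and 24 hr after traumatic brain injury (TBI) than without injury. They are the rows of the RNA-seq table whose FlyBase symbol is CG followed by a number, the computed identifier that a Drosophila gene keeps until it receives a name. The members were chosen by their measured TPM (the share of a gene among all transcripts, corrected for its length and set to an equal sum in each sample): at least 1 in at least 5 of the 15 samples, every sample at 4 hr and at 24 hr after injury above every uninjured sample, and the lowest 4 hr sample not above the highest 24 hr sample. Of 6045 CG rows deposited, 2535 passed the expression filter, and 39 of these met the rule. The third condition had set aside 13 further rows, in which all 4 hr samples lay above all 24 hr samples.

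The flies carried R86E01-Gal4 and UAS-Redstinger, so that astrocytes expressed a red fluorescent protein, and their genotype was otherwise labelled wild type (WT). They received TBI from a high-impact trauma device, in which a spring throws the vial, at 3 days after eclosion, and the sex of the flies is not given in the sources used here. Brains were dissected from uninjured flies and from flies 4 hr and 24 hr after injury, about 50 brains in each group, and the red astrocytes were sorted from the dissociated tissue. There were 5 replicates in each of the 3 groups, and cells of several animals were thus pooled. Replicate numbers follow the sample titles. The submitters' sample descriptions number most uninjured and all 24 hr samples differently. Nothing in the sources used here says that equal numbers in different groups mark the same batch. The driver defined the cells, and any other cell in which it is active would be sorted with them. Fly astrocytes send fine processes into the neuropil, where they take up glutamate and GABA. Genes known only by a CG number are mostly those for which no mutant or function had given a name, so that their roles are often inferred from related genes of other species.

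Depth per sample is unknown because TPM keeps no read numbers, and precision was taken from the replicates alone. Transcripts of the mitochondrial genome took 32.7% to 51.8% of TPM in uninjured samples, 11.5% to 43.2% at 4 hr and 15.2% to 37.2% at 24 hr, and the median of the 8101 tested genes was 0.31 higher at 4 hr and 0.51 higher at 24 hr on the log2(TPM + 1) scale. Defining astrocyte genes were abundant, with a summed TPM over 8 genes, alrm, Eaat1 and Gat among them, of 50859 to 81051 in uninjured samples, 53867 to 75122 at 4 hr and 62326 to 84423 at 24 hr. A list of 13 neuronal genes summed to 32.6 to 85.0, 48.8 to 113 and 40.2 to 233 TPM in the same order. For hemocytes the sum of 9 genes was 69.8 to 162, 114.8 to 272 and 117 to 286, carried mainly by crq. Of the other hemocyte genes He was at 0 in all 15 samples and NimC1 and eater in 14, whereas the means of Col4a1 were 3.89, 11.7 and 31.2 and those of vkg 2.77, 7.29 and 16.2 TPM in uninjured, 4 hr and 24 hr samples. The sum of drpr and Eaat2, used for ensheathing glia, was 56.9 to 94.6, 174 to 304 and 81.1 to 211, and the sum of 3 cortex glia genes 319 to 766, 388 to 1819 and 694 to 2246. The fat body, surface glia, muscle and photoreceptor lists reached at most 42.5, 131, 5.49 and 3.88 TPM in any sample. The ensheathing glia sum at 4 hr was above all uninjured samples in 5 of 5 samples, with the smallest p that an exact two-sided permutation test allows here, 0.00794. That sum was carried mainly by drpr, with means of 61.3, 211 and 116 TPM in uninjured, 4 hr and 24 hr samples. Eaat2 had means of 8.14, 13.5 and 28.5. The study reports drpr as raised in astrocytes after TBI, but from RNA-seq of these same sorted samples. That report cannot tell which cells carried the sum, and this was not tested. Adjusted over all lists and both times the lowest p was 0.0714, but a single separated list could reach no less than 0.143 alone, so the adjusted values carry little information. Whether other cells contributed to the members' values was not tested. In bulk samples, more cells of a type and more RNA per cell cannot be told apart.

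The 39 members were all protein coding and all matched a RefSeq entry by symbol. RefSeq lists a further name for some of them, so that not every member is without a proposed identity: NOP2 for CG8545, Nol8 for CG14230, RBM34 for CG12288, Get4 for CG9853, atic for CG11089, RUFY1 for CG31064, MAP1A for CG13630, SP30 for CG10663, SPH254 for CG6067, and LPP and WUN-like for CG11426. For the other members the sources used here gave no function, and none is assigned. The members spanned a wide range of expression before injury. Mean uninjured TPM was under 1 in 12 members, 1 to 10 in 12, 10 to 100 in 13 and over 100 in 2. Its median over the members was 6.48, against 9.21 for all tested CG rows.

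**Figure D1:**
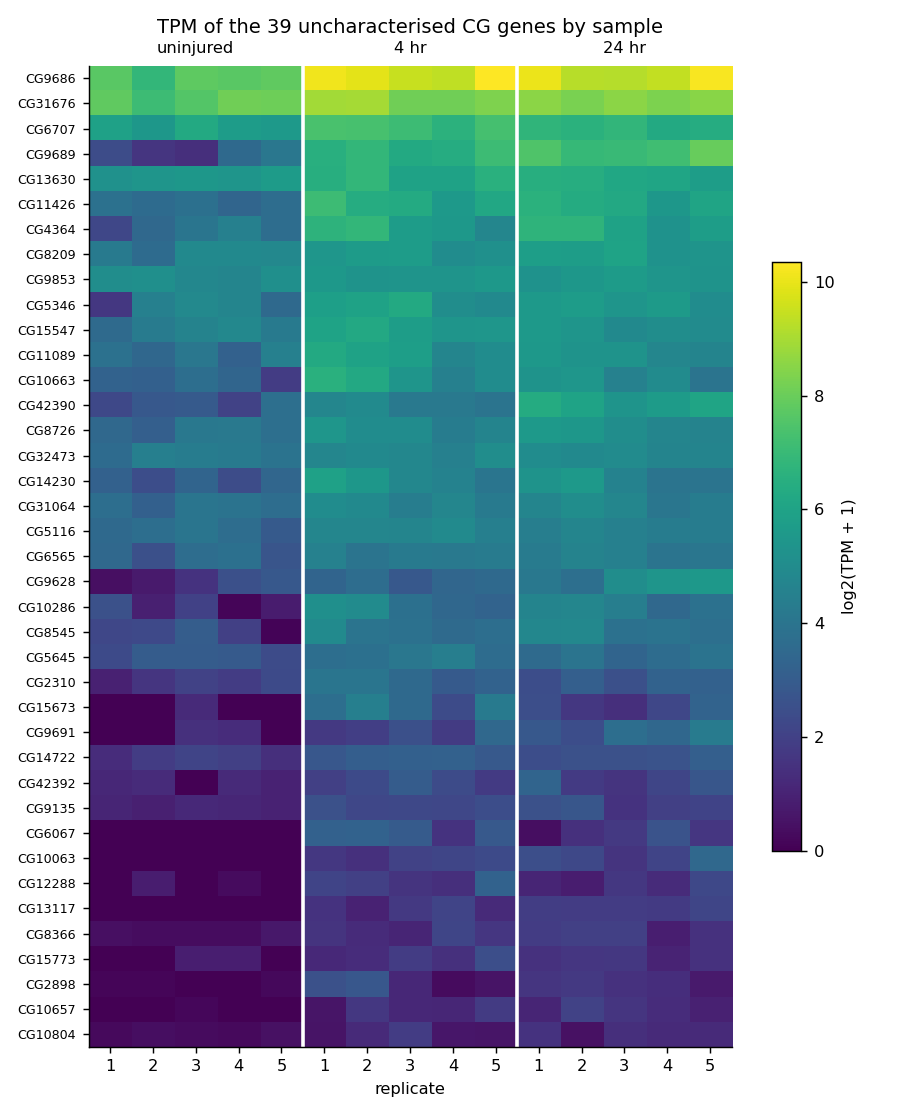
Heat map of log2(TPM + 1) for the 39 members (rows, ordered by mean TPM over 15 samples) in replicates 1 to 5 of each group (columns, separated by white lines). The step from the uninjured block to both injured blocks is what the selection required, and CG9686 and CG31676, the 2 members with a mean uninjured TPM over 100, form the brightest rows.

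At 4 hr the members' median difference from uninjured astrocytes was 1.45 on the log2(TPM + 1) scale, with a range of 0.44 to 4.04. At 24 hr it was 1.28, with a range of 0.45 to 4.70. These values were selected on and are given as a description, with no test. Over the 36 members not listed at 0 in all uninjured samples the medians were 1.37 and 1.23. A limma fit of all 8101 genes, in which a gene was called when its p, adjusted by Benjamini–Hochberg, was below 0.01 and its difference was at least 1, called 22 members higher at 4 hr, where 5.76% of all tested genes were called, and 12 at 24 hr, where 2.26% were. The selection used these same contrasts, so nothing is read from the members' share against the background. Of the members 9 were called at both times, 13 at 4 hr only, 3 at 24 hr only and 14 at neither. Under all of 9 other settings of the fit, 10 of the calls at 4 hr and 5 of those at 24 hr were also made. All 5 samples lay above all uninjured ones in 8.68% of tested genes at 4 hr and in 12.5% at 24 hr. The full set of conditions on values was met by 1.54% of tested CG rows and by 3.16% of the 5566 other tested genes (176 genes).

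Between the 2 times the sign of the members' difference depended on the scaling, whereas their place against the median gene changed little. The difference of 24 hr from 4 hr was above 0 in 18 and below 0 in 21, with a median of -0.09 and a range of -1.47 to 1.47, while the median of all tested genes was 0.18 and 10 members exceeded it. With size factors 12 members were above 0 and 27 below, and with quantile normalization 9 and 30. No member was called in this comparison, which called 0.42% of tested genes higher and 1.58% lower at 24 hr. The third condition of the rule had set aside rows with all 4 hr samples above all 24 hr samples. The signs and counts of this comparison were therefore shaped by the selection. They are given as a description, and nothing is read from them against all tested genes. At an unadjusted p under 0.05, 7 members differed between the times, as did 19.0% of all tested genes. CG42390 was the 1 member called when only the 2 groups compared were fitted. In 37 members the 4 hr and 24 hr samples overlapped. The rule allowed no member with all 4 hr samples above all 24 hr samples, so this count was in part fixed in advance. The share of all tested genes with such an overlap was not counted.

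**Figure D2:**
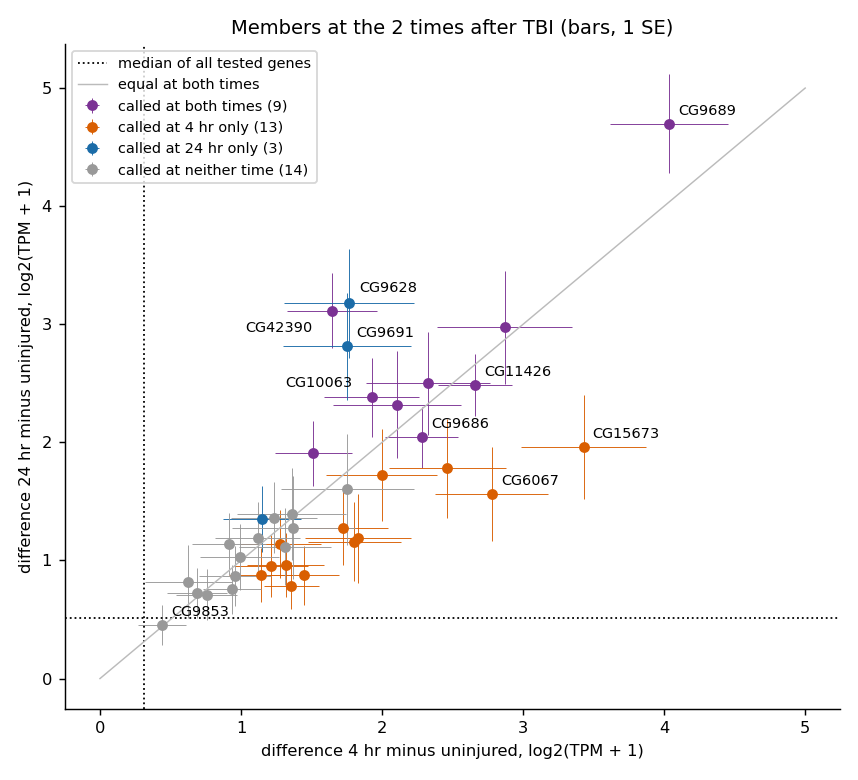
Difference from uninjured on the log2(TPM + 1) scale at 4 hr (horizontal) and at 24 hr (vertical) for each member, with bars of 1 SE from the limma fit and colours for the calls. CG9689 lies at 4.04 and 4.70, CG15673 and CG6067 lie below the line of equal change, and CG42390, CG9628 and CG9691 lie above it, while dotted lines mark the medians of all tested genes at 0.31 and 0.51.

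The largest difference on the log2(TPM + 1) scale and the highest level were found in neighbouring genes. CG9686 (chrX:9879870-9880535), CG9689 (chrX:9881953-9883670) and CG9691 (chrX:9884442-9885044; dm6) lie in a row on the same strand of the X chromosome, 1417 and 771 bases apart, with no annotated gene between them. Their merged exons span 666, 1655 and 603 bases and share no base with another annotated gene. For none of the 3 do the sources used here give a function, although RefSeq lists a lincRNA name among the synonyms of CG9689, which is annotated as protein coding.

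CG9689 had a TPM of 4.27, 2.02, 1.62, 10.7 and 16.00 in uninjured replicates 1 to 5, of 92.1, 114, 76.9, 84.6 and 138 at 4 hr and of 178, 119.9, 128, 143 and 244 at 24 hr. The lowest injured sample, 76.9, was well above the highest uninjured one, 16.0, and only replicate 5 at 4 hr reached into the 24 hr range. The difference on the log2(TPM + 1) scale was 4.04 ± 0.42 (SE, n = 5) at 4 hr and 4.70 ± 0.42 at 24 hr, the highest of all members at both times on this scale. With a pseudocount of 0.1 it was 4.34 and 5.01, below CG15673 (6.10), CG6067 (5.86) and CG10063 (4.84) at 4 hr and below CG10063 (5.39) at 24 hr, members at or near 0 without injury. CG9686, the most abundant member, was at 207, 115.2, 217, 208 and 225 TPM without injury, at 1134, 986, 709.7, 649.6 and 1307 at 4 hr and at 1046, 600.4, 580.01, 672 and 1209 at 24 hr. Uninjured replicate 2 was lower than the other 4, and the injured times overlapped almost fully. It rose by 2.28 ± 0.26 and 2.04 ± 0.26, called at both times. CG9691 was far lower, at 0, 0, 1.69, 1.51 and 0 TPM in uninjured samples, 2.32, 2.83, 4.84, 2.46 and 10.3 at 4 hr and 6.24, 4.46, 12.5, 9.95 and 18.8 at 24 hr. It was listed at 0 in 3 uninjured samples, and its injured ranges overlapped through 4 hr replicates 3 and 5, with a difference from uninjured of 1.75 ± 0.45, not called, and then 2.81 ± 0.45, called. In all 3 genes replicate 5 was the highest sample at both injured times.

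**Figure D3:**
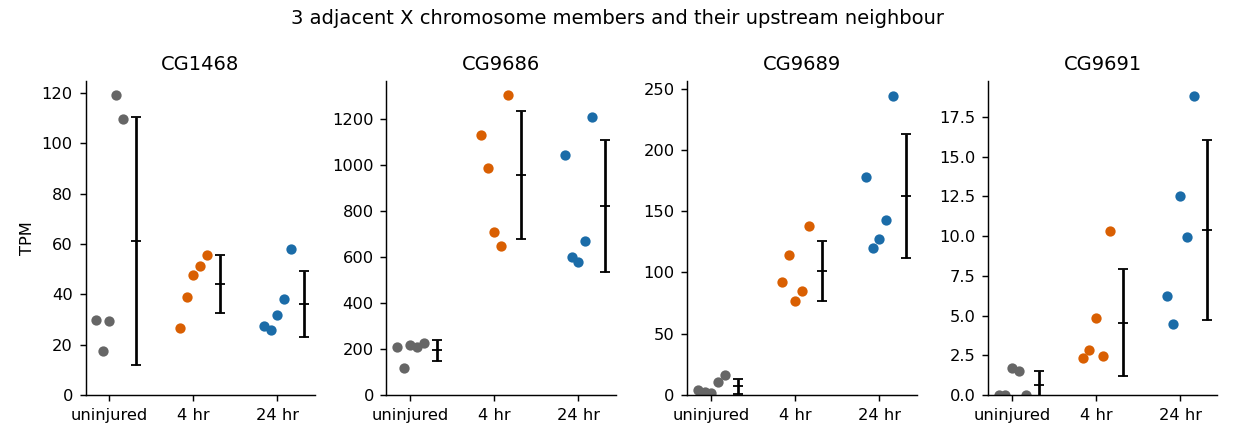
TPM of CG1468, CG9686, CG9689 and CG9691 in each sample (points, replicates 1 to 5 from left to right within a group) with the mean and SD of each group in black (n = 5), on a separate linear scale for each gene. The 3 members sit above all uninjured samples at both times, whereas CG1468 has injured samples inside its uninjured range.

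None of the tested genes within 10 kb of the run was called at either time. CG1468, the next gene upstream on the same strand, was at 61.1 ± 49.1 TPM (SD, n = 5) in uninjured, 43.99 ± 11.5 at 4 hr and 36.2 ± 13.1 at 24 hr samples, with differences of -0.11 and -0.40 and a limma adjusted p of 0.91 and 0.51. CG32695 and CG45061 further upstream were at means of 3.82 to 6.01 and 0.47 to 2.65 TPM. On the other side CG15249 and CG1986 were listed at 0 in every group. The nearest expressed gene there was Idgf4, a chitinase-like growth factor gene that begins 48.1 kb from the start of CG9686. It was at 21.5 ± 12.1, 89.3 ± 57.00 and 142 ± 65.9 TPM and was called at 24 hr (difference 2.77, limma adjusted p = 0.0031) but missed the threshold at 4 hr (1.99, limma adjusted p = 0.012).

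**Figure D4:**
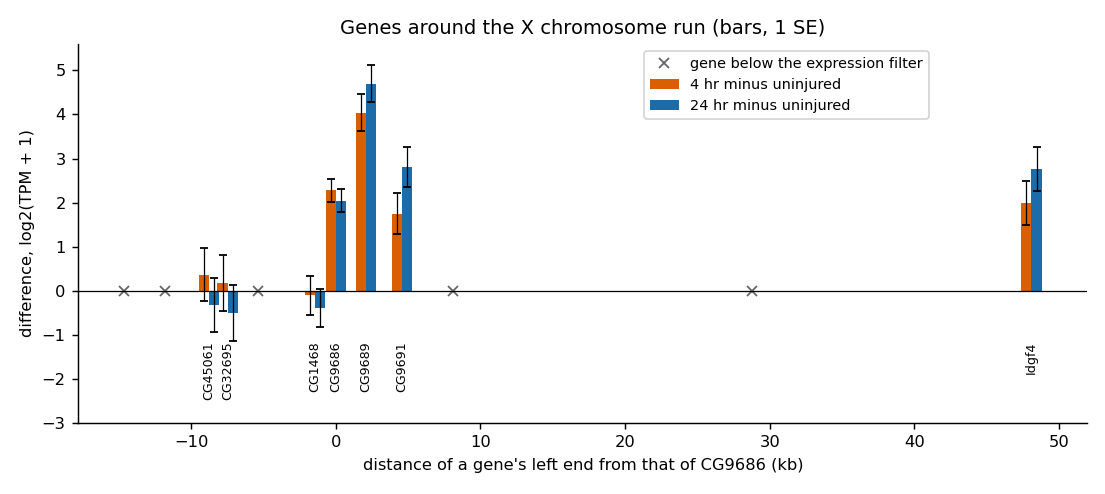
Difference from uninjured on the log2(TPM + 1) scale (bars with 1 SE from the limma fit) at 4 hr and 24 hr for expressed genes by their distance from CG9686, with crosses for genes below the expression filter. CG9686, CG9689 and CG9691 stand at 1.75 to 4.70 between CG1468, at -0.11 and -0.40, and an unexpressed stretch that ends at Idgf4.

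Another 2 members lie within 10 kb of each other. CG10663 (chr3L:12474418-12485035) and CG10657 (chr3L:12491830-12497216) are on the same strand of chromosome arm 3L, 6.79 kb apart. CG10660 lies between them on that strand and went from 4.36 ± 3.47 to 12.8 ± 3.68 and 16.5 ± 8.19 TPM, with differences of 1.62 and 1.89 that missed the threshold (limma adjusted p = 0.029 and 0.017). CG10657 was barely detected, at 0 in 4 uninjured samples and 0.13 in replicate 3, and at 0.51 to 2.47 and 0.95 to 3.16 TPM after injury. Of its exonic bases 85.8% overlap an antisense gene, asRNA:CR45682, so that its reads may not be separable from those of that gene.

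CG10663, listed by RefSeq as SP30, a serine protease name, was at 8.51, 8.1, 12.2, 9.38 and 2.58 TPM in uninjured replicates, 93.6, 74.05, 40.9, 21.6 and 31.3 at 4 hr and 38.7, 41.9, 22.5, 30.9 and 14.9 at 24 hr. Replicates 1 and 2 were highest at both times, and the 2 injured groups overlapped. The differences were 2.46 ± 0.42 and 1.78 ± 0.42, and only the first was called. The second member with a name of this family is CG6067 (chrX:5955629-5958283), SPH254, where SPH stands for serine protease homologue. It was listed at 0 in all 5 uninjured samples, at 8.37, 8.51, 6.87, 1.88 and 6.51 TPM at 4 hr and at 0.32, 1.68, 2.31, 5.21 and 2.1 at 24 hr. Only 4 hr replicate 4 fell within the 24 hr range, and 24 hr replicate 1, at 0.32 TPM, was the injured sample closest to 0. Of the CG6067 exonic bases, 5.47% are shared with fs(1)M3 on the opposite strand. That gene was at means of 1.09, 7.91 and 4.62 TPM in uninjured, 4 hr and 24 hr samples.

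Members that carry names of nucleolar or RNA-binding proteins are given together. The nucleolus is where ribosomal RNA is made and assembled with proteins. In yeast and human, NOP2 methylates ribosomal RNA, NOL8 is a nucleolar protein of human cells and RBM34 a human RNA-binding protein. CG14230 (Nol8, chrX:19704176-19706417) had 8.31, 4.52, 9.03, 4.23 and 9.74 TPM in uninjured samples, 59.4, 43.2, 26.97, 22.9 and 15.5 at 4 hr and 39.03, 45.9, 23.1, 14.9 and 14.8 at 24 hr. CG8545 (NOP2, chr2R:12468651-12471722) had 3.59, 3.91, 7.39, 2.87 and 0.06 without injury, 29.97, 15.04, 13.4, 10.9 and 12.6 at 4 hr and 26.6, 27.8, 13.4, 14.3 and 12.7 at 24 hr. In both genes replicates 1 and 2 were the highest injured samples at each time and the 4 hr and 24 hr ranges overlapped. The difference of CG14230 was 2.00 ± 0.39 and 1.72 ± 0.39, with only the first called, and that of CG8545 was 2.11 ± 0.46 and 2.32 ± 0.46, called at both times. The calls of CG8545 depended on the processing: both were lost with a pseudocount of 0.1, with the mitochondrial genome removed, with the mitochondrial share as a covariate and with no filter, the one at 4 hr also when only 2 groups were fitted, and the one at 24 hr also with size factors and with quantile normalization.

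CG12288 (RBM34) differed from this pattern. Its TPM was 0, 0.79, 0, 0.25 and 0 in uninjured, 3.34, 2.93, 1.95, 1.66 and 8.46 in 4 hr and 1.11, 0.8, 2.17, 1.42 and 3.69 in 24 hr samples. Replicate 5 was the highest at both times, and the lowest 24 hr sample, 0.8, passed the highest uninjured one, 0.79, by the smallest margin of all members.

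CG10286 and CG4364, members without a further name, also had their highest injured values in replicates 1 and 2. Equal numbers at the 2 times are not taken as pairs. Replicates 1 to 3 had the lower mitochondrial shares at both times. Of all tested genes, 35.8% at 4 hr and 36.4% at 24 hr were higher in all of them than in replicates 4 and 5. CG10286 (chr3R:6368965-6371115) was at 4.96, 0.87, 2.97, 0.09 and 0.72 TPM in uninjured samples, 34.9, 30.5, 12.9, 10.1 and 8.86 at 4 hr and 24.4, 25.8, 20.6, 10.5 and 13.7 at 24 hr. It rose by 2.87 ± 0.48 and 2.97 ± 0.48 and was called at both times, the second largest change at 4 hr among the called at both. CG4364 (chr2L:9708921-9711271) went from 3.65, 10.3, 15.2, 21.98 and 11.8 TPM to 102, 114, 52.4, 45.5 and 26.1 at 4 hr and 105, 104, 60.6, 37.9 and 53.6 at 24 hr, a difference of 2.33 ± 0.44 and 2.50 ± 0.44. In each of the 2 genes, replicates 1 and 2 exceeded replicates 3 to 5 at both times.

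The annotated neighbours of CG4364 differed in their values. On the opposite strand, pelo, a ribosome rescue factor gene, ends next to it and went from 7.08 ± 6.29 to 26.5 ± 12.8 and 27.3 ± 8.99 TPM (differences 2.05 and 2.20, limma adjusted p = 0.021 and 0.018). Of these neighbours only hoip was called, and only at 4 hr. The gene hoip, which encodes a small nucleolar ribonucleoprotein subunit, went from 24.9 ± 13.2 to 115.02 ± 25.4 and 45.1 ± 12.8 TPM (differences 2.28 and 0.94, limma adjusted p = 5e-05 and 0.041). CG31710, which lies within the pelo locus, had differences of -0.47 and -0.50. On the other side, 25.4 kb from CG4364, the member CG13117 lies inside Nckx30C on the strand opposite to it.

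CG11426 (chr3L:22470556-22473509), with names of the lipid phosphate phosphatases that include Drosophila Wunen, enzymes that dephosphorylate lipids at the cell surface, had 13.4, 11.2, 12.96, 9.27 and 12.2 TPM in uninjured replicates. It had 137, 83.6, 80.2, 47.4 and 72.2 at 4 hr and 97.02, 82.1, 75.99, 43.02 and 64.9 at 24 hr. No uninjured sample came near an injured one, the 2 injured ranges overlapped, and the SD of the uninjured samples was small (11.8 ± 1.64). The difference was 2.66 ± 0.26 and 2.48 ± 0.26, called at both times. CG11089 (chr3R:24877045-24881478), listed as atic, the enzyme of the last steps of de novo purine synthesis, was named by the study among genes of wound response. It was at 13.7, 10.1, 16.1, 8.33 and 21.7 TPM in uninjured samples, 76.6, 61.2, 55.2, 25.4 and 31.5 at 4 hr and 44.5, 38.8, 38.5, 25.7 and 24.7 at 24 hr. The first 3 replicates were higher than the other 2 at each time, and the difference of 1.72 ± 0.32 at 4 hr was called while that of 1.28 ± 0.32 at 24 hr was not.

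Besides CG6067, CG10063 and CG13117 were listed at 0 in all uninjured samples. CG10063 (chr3L:6971579-6972467) was at 2.17, 1.68, 3.15, 3.5 and 3.99 TPM at 4 hr and 4.62, 3.78, 1.92, 3.33 and 10.3 at 24 hr, with replicate 5 highest at both times. CG13117 was at 1.84, 0.98, 2.3, 3.35 and 1.34 at 4 hr and 2.71, 2.56, 2.6, 2.43 and 3.53 at 24 hr, so that all 10 injured samples lay between 0.98 and 3.53. No fold is given against a group at 0. A value of 0 does not show that a gene was silent, since Fib, a gene for the core nucleolar protein fibrillarin, was itself listed at a mean of 0.072 TPM in uninjured samples. Of the CG10063 exons, 10.6% are shared with CG9953 on the other strand, which was at a mean of 66.3 TPM in uninjured samples.

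Higher levels at 24 hr than at 4 hr were seen in CG42390 and CG9628, the only 2 members whose 24 hr samples all lay above all 4 hr samples. How many of all tested genes had this order was not counted. CG42390 (chr3R:22120061-22133367), which has the longest exonic length of the members, 5689 bases, was at 3.8, 6.3, 6.57, 3.1 and 12.6 TPM in uninjured, 26.00, 30.4, 17.4, 17.2 and 14.7 in 4 hr and 81.1, 62.6, 40.4, 49.9 and 65.1 in 24 hr samples. It rose by 1.65 ± 0.32 and then 3.12 ± 0.32. CG9628 (chr3L:14622796-14628174) was at 0.35, 0.67, 1.89, 4.75 and 6.17 TPM without injury, at 9.22, 12.1, 6.29, 9.59 and 10.7 at 4 hr and at 16.8, 12.7, 33.2, 41.5 and 45.2 at 24 hr. The highest uninjured sample, 6.17, lay just under the lowest at 4 hr, 6.29, and the differences were 1.76 ± 0.46, not called, and 3.18 ± 0.46, called. After these came CG9691 (1.06 from 4 hr to 24 hr on the log2 scale), CG9689 (0.66) and CG10063 (0.45).

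The opposite order was strongest in CG15673 (chr2R:21608393-21613071), with 0, 0, 1.33, 0 and 0 TPM in uninjured, 12.3, 21.3, 10.5, 4.16 and 18.1 in 4 hr and 4.57, 2.19, 1.61, 3.57 and 8.81 in 24 hr samples. A single uninjured sample, replicate 3, was above 0. Replicate 4 was low at 4 hr and fell within the 24 hr range. The difference was 3.43 ± 0.44 at 4 hr and 1.96 ± 0.44 at 24 hr, and only the first was called. Next came CG6067 (-1.21 from 4 hr to 24 hr), CG10663 (-0.68), CG2310 (-0.64) and CG12288 (-0.64). CG2310 had 0.94 to 4.03, 6.71 to 15.4 and 4.47 to 8.55 TPM in the 3 groups, with a call at 4 hr.

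Among the 8 most abundant members, CG31676, CG6707, CG13630 and CG8209 had differences below the members' median at both times. CG31676 was at 219 ± 56.8 TPM (SD, n = 5) in uninjured, 372 ± 109.7 in 4 hr and 349 ± 34.3 in 24 hr samples. CG6707 had 55.8 ± 13.4, 144 ± 27.1 and 95.98 ± 14.8, and was called at 4 hr. CG13630 had 42.6 ± 5.10, 84.6 ± 23.3 and 73.5 ± 14.98, and CG8209 22.9 ± 7.94, 42.3 ± 8.87 and 49.9 ± 11.2, with no call. The smallest change of all was in CG9853, listed as Get4, which in yeast and mammals helps to deliver tail-anchored proteins to the endoplasmic reticulum. It had 30.7 ± 4.47, 41.7 ± 2.61 and 42.2 ± 4.79 TPM, and its 24 hr difference of 0.45 was below the 0.51 of the median gene. Under size factors and quantile normalization the 24 hr difference was -0.04 and -0.01.

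Of the remaining 13 members, CG15547, CG14722, CG9135, CG5645 and CG5116 were called at 4 hr and CG8726 at 24 hr. CG5346, CG2898, CG42392, CG15773, CG8366, CG6565 and CG32473 were called at neither time. Their differences ranged from 0.69 in CG32473 to 1.75 in CG5346 at 4 hr and from 0.72 in CG32473 to 1.60 in CG5346 at 24 hr. The highest uninjured sample of this group was 28.4 TPM, in CG5346. In CG5116, 84.2% of the exonic bases belong also to CG42488 on the same strand, which was at a mean of 2.80, 0 and 7.84 TPM in the 3 groups, so how its transcripts were divided is uncertain. The same holds for CG42392, of whose exons 26.3% are shared with unc-104.

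Members just inside the rule were CG12288, CG31676, CG6707, CG31064 and CG10804. In CG31676 the highest uninjured sample was 272 and the lowest injured one 273 TPM, in CG6707 they were 76.9 and 77.9, in CG31064, listed as RUFY1, an endosomal protein in human, 15.3 and 15.6, and in CG10804 0.37 and 0.39. Just outside were CG30349, with 7.91 in the highest uninjured and 7.89 in the lowest 24 hr sample, CG2767 with 40.3 and a lowest 4 hr sample of 40.0, CG10576 with 17.4 and 17.2 at 24 hr, CG10631 with 4.09 and 4.04 at 24 hr, and CG13384 with 42.2 and 41.4 at 24 hr. In 14 other CG rows the highest uninjured and the lowest injured sample were both 0. Of the 13 rows above uninjured at both times but higher at 4 hr throughout, those nearest to the limit were CG5004, with a lowest 4 hr sample of 40.4 and a highest 24 hr sample of 35.4 TPM, CG11030 with 13.1 and 10.4, CG30015 with 436 and 352, CG1572 with 20.1 and 14.2, and CG6712 with 25.8 and 17.9.

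When 1 sample was left out the rule took between 41 and 77 CG rows, with 77 without uninjured replicate 3, 65 without uninjured replicate 4, 61 without uninjured replicate 5 and 60 without 4 hr replicate 4. Leaving out a sample loosens the conditions on the lowest and highest samples, so nearly all changes were rows added, and this says nothing about the stability of the members. Without 4 hr replicate 4, CG15673, CG6067 and CG6707 no longer met the rule, since their 4 hr samples then all lay above the 24 hr ones. The lowest difference of any member in these fits was 0.37 at 4 hr and 0.39 at 24 hr. The rule had fixed the sign of these differences, since each member's injured samples all lay above its uninjured ones. The calls below rest on the same selected values and are given as a description. Of the calls at 4 hr 17 were made in all 15 fits, and those of CG9135, CG5645, CG8545, CG14722 and CG5116 were lost in 8, 5, 3, 2 and 1 of them. The last was lost without uninjured replicate 5, that of CG14722 without 4 hr replicate 2 or 3, and that of CG8545 without 4 hr replicate 1 or 2 or uninjured replicate 4. Of the calls at 24 hr 9 were made in all fits. That of CG4364 was lost without 24 hr replicate 1, and those of CG8726 and CG8545 without any single one of 24 hr replicates 1 to 3, and also without any of 4 other samples for CG8726 and 3 for CG8545.

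The conditions on values were still met by 20 members after median-of-ratios size factors, by 13 after quantile normalization and by 23 when the mitochondrial genome was removed and TPM rescaled. The 13 that met them under both scalings were CG9689, CG9686, CG10286, CG11426, CG10663, CG4364, CG8545, CG14230, CG10063, CG42390, CG13117, CG8726 and CG8209. These scalings brought the median of all genes to between -0.06 and 0.19 on the log2 scale. All 39 members were above 0 at 4 hr under size factors and under quantile normalization, and 38 and 37 were at 24 hr, the exceptions being CG9853 under both and CG10804 under quantile normalization. With quantile normalization the calls of CG12288, CG13117, CG14722, CG9135, CG5645 and CG5116 at 4 hr and of CG8545, CG10063, CG9691, CG13117 and CG8726 at 24 hr were lost.

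The mitochondrial share split the injured samples, and the members differed across it about as often as all tested genes. Replicates 4 and 5 had 36.3% to 43.2% at 4 hr and 33.4% to 37.2% at 24 hr, inside the uninjured range, and replicates 1 to 3 had 11.5% to 26.9% and 15.2% to 19.6%. At 4 hr 15 members were higher in all of replicates 1 to 3 than in replicates 4 and 5, and 2 were lower in all of them, CG10063 and CG8366, against 35.8% and 10.2% of tested genes. At 24 hr 15 members were higher and 3 lower, CG14722, CG2310 and CG9628, against 36.4% and 13.1%. Members higher in replicates 1 to 3 at both times were CG10286, CG11426, CG4364, CG14230, CG11089, CG2898, CG8209 and CG8726. In the 2 replicates with shares inside the uninjured range the median difference of the members was 1.33 at 4 hr and 1.11 at 24 hr. The medians of all tested genes there were 0.07 and 0.33. In the other 3 replicates the members' median was 1.52 and 1.49, with 0.47 and 0.62 for all tested genes. The rule placed every injured sample above every uninjured one, so the sign of the members' differences was fixed in any subset. These medians are a description only. With the share as a covariate, 14 members were called at 4 hr and 7 at 24 hr. The calls lost were those of CG4364, CG8545, CG14230, CG2310, CG11089, CG42390, CG9135 and CG5116 at 4 hr and of CG10286, CG4364, CG8545, CG9691 and CG8726 at 24 hr.

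**Figure D5:**
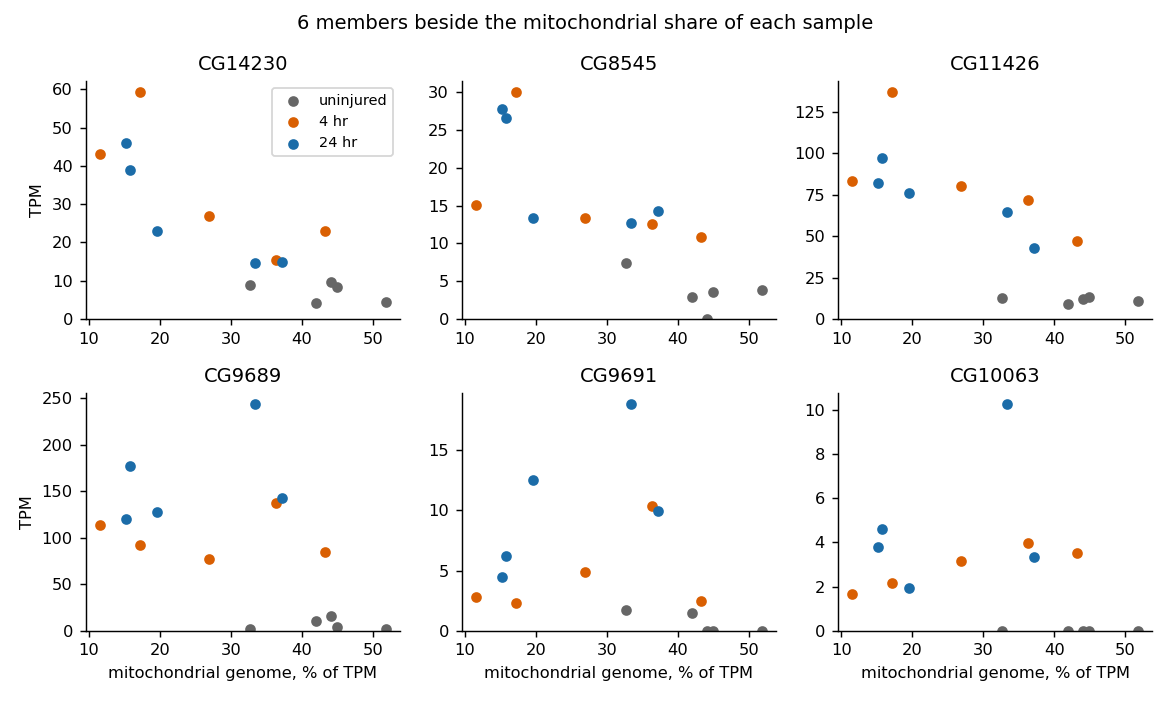
TPM (vertical, linear, a separate scale for each gene) of 6 members against the percent of TPM from the mitochondrial genome (horizontal) in each of 15 samples, coloured by group. CG14230, CG8545 and CG11426 reach their highest values in injured samples with shares under 20%, whereas CG9689, CG9691 and CG10063 have their highest value in 24 hr replicate 5, at 33.4%.

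The members were spread over the chromosome arms. There were 8 on X, 6 on 2L, 5 on 2R, 8 on 3L, 12 on 3R and none on 4. The share on 3R was 30.8% against 24.7% of tested CG rows, and that on X was 20.5% against 20.1%. Their median exonic length was 1882 bases, with a range of 603 to 5689, against 1758 for tested CG rows. Exons of 17 members overlap those of another gene. Over 5% of exonic bases were shared with 1 other gene in 8 members. Among these, CG9853 shared 14.8% with CG14647, CG8726 12.7% with nito and CG15673 7.44% with asRNA:CR43243, all on the opposite strand. CG14647 was at a mean of 99.2 TPM in uninjured samples. There were 8 members that lie within another gene. Mean TPM of these hosts in uninjured, 4 hr and 24 hr samples was 0.96, 13.3 and 9.43 for lncRNA:CR44999 (host of CG10804). It was 26.3, 58.0 and 56.6 for Snx27 (CG15773) and 448, 556 and 578 for CG17841 (CG2898). For dgt5 (CG8545) it was 2.15, 5.21 and 4.96 and for Nckx30C (CG13117) 1.43, 3.32 and 4.20. For unc-104 (CG42392) it was 4.86, 8.04 and 9.49. The values were 6.02, 5.89 and 7.12 for tweek (CG12288) and 1.57, 1.88 and 1.62 for Strn-Mlck (CG8366). Whether strand was used in counting is not given in the sources used here. Without it, reads of a member and of an overlapping gene on the opposite strand cannot be told apart. CG17841 and unc-104 lie on the same strand as CG2898 and CG42392, so that strand would not separate their reads.

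For orientation 22 genes that the study names from these same data in several contexts, such as injury, immunity and endocytic trafficking, were grouped here into 1 list, among them the transcription factor genes Jra and kay, the engulfment receptor gene drpr and the matrix metalloproteinase gene Mmp1. All were tested. At 4 hr 18 were called higher and at 24 hr 7, and 7 were called lower at 24 hr than at 4 hr (limma). The shares of all tested genes called in these ways were 5.76%, 2.26% and 1.58%. Their median difference was 1.78 at 4 hr and 1.14 at 24 hr, with 0.31 and 0.51 for all tested genes. Their choice rested on these samples, so the counts are no independent evidence of direction. The conditions on values that define the members were met by 2 of the 22, Stam, which takes part in endosomal sorting, and Arpc1, a subunit of the actin-nucleating Arp2/3 complex. Of all tested genes other than CG rows, 3.16% met them. Arpc1 had 84.3, 323 and 365 TPM on average in the 3 groups and Stam 60.9, 172 and 129.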

How the data were processed

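RNA-seq values of sorted astrocytes were used from 15 samples, 5 replicates in each of 3 groups. The authors deposited TPM for 17509 genes, made from paired-end Smart-seq2 libraries aligned to dm6, and how TPM was computed is not given in the sources used here. The submitters' processing notes name HISAT2, HTSeq, STAR 2.6.0a, RSEM 1.3.1 and DESeq2 1.30.1. The 8101 genes that reached a TPM of 1 in 5 or more samples were fitted as log2(TPM + 1) with limma 3.58.1 in R 4.3.3, all 3 groups together with a variance trend, and p-values were adjusted by Benjamini–Hochberg over all of them. This scale understates the change of genes near 0. The fit was tested on simulated data. The members and the gene lists were chosen with earlier results of these data known. Members named with values were those highest in TPM, largest in difference at each time or between times, at 0 in uninjured samples, nearest to the limits of the rule, within 10 kb of each other, or named in the study's GO list. CG14230, CG8545 and CG9853 were added for their RefSeq names or small change, after their values were seen. Marker lists were compared by exact two-sided permutation of 5 against 5 samples, where the smallest p is 0.00794. The study calls them biological replicates. Positions and exons are from the BDGP6 annotation, Ensembl release 115. Replicates correlated at 0.878 to 0.967 and no sample was left out. Alternatives were another pseudocount, filters, 3 scalings, the mitochondrial share as a covariate, a fit without trend, of 2 groups or with a replicate block, and leaving out each sample. Protein and promoter sequences were not used here.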

Additional observations from a re-analysis of the deposited data

Results flagged for a closer look

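The check covered 120 groups of 5 samples, from each member, the members' summed TPM and the mitochondrial share. In 7 of them a sample lay far from the other 4 by Dixon's ratio at its 95% critical value of 0.71. Chance alone flags about 1 in 20 groups of normally distributed values, a rate that does not hold for groups with samples tied at 0. In uninjured replicate 3, CG15673 was at 1.33 TPM and CG10657 at 0.13, with the other 4 uninjured samples at 0 in both. These ties alone set the ratio to 1 in both genes. In uninjured replicate 2, CG9686 was at 115.2 TPM, with the next sample at 207. In 4 hr replicate 1, CG8545 was at 29.97 TPM, with the next at 15.04, and in 4 hr replicate 5, CG12288 was at 8.46, with the next at 3.34. In 24 hr replicate 5, CG13117 was at 3.53 TPM, with the next at 2.71, and CG14722 was at 7.9, with the next at 5.33. Neither the summed TPM of the members nor the mitochondrial share had such a sample.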

How the results depend on the processing

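The number of CG rows that met the rule was 20 with size factors, 13 with quantile normalization, 23 with the mitochondrial genome removed, and 41 to 77 when 1 sample was left out. The calls at 4 hr fell from 22 to 14 with the mitochondrial share as a covariate, and those at 24 hr from 12 to 7 with that covariate and to 7 with quantile normalization. Between 4 hr and 24 hr, 1 member, CG42390, was called with quantile normalization, without the mitochondrial genome, with the covariate, with only the 2 groups compared, with the replicate block and with the filter at a TPM of 5, and 0 to 1 when 1 sample was left out. The members' median difference of 1.45 at 4 hr was 2.18 with a pseudocount of 0.1, 1.24 with size factors and 1.06 with quantile normalization, and that of 1.28 at 24 hr was 1.92, 0.99 and 0.74 in the same order and 1.05 with the covariate. Chosen after seeing the data, the injured samples with a mitochondrial share inside the uninjured range gave 1.33 and 1.11, with a sign that the rule had fixed. Of 468 recomputed differences of single members from uninjured, 3 changed sign, all at 24 hr: CG9853 to -0.036 with size factors and -0.010 with quantile normalization, and CG10804 to -0.019 with quantile normalization. The difference between 24 hr and 4 hr changed sign in 6 members with size factors, 9 with quantile normalization, 4 without the mitochondrial genome, 2 with the covariate and 1 with a pseudocount of 0.1. The causes were not tested. Over all genes the count called higher at 24 hr, 183, was 50 with size factors, 45 with quantile normalization, 74 without the mitochondrial genome, 27 with the covariate, 101 with no filter and 68 to 279 when 1 sample was left out, and the count at 4 hr, 467, was 282 with quantile normalization and 294 with the covariate. Same-numbered samples correlated at -0.04 to 0.15 between uninjured and 4 hr, -0.04 to 0.21 between uninjured and 24 hr and -0.02 to 0.54 between 4 hr and 24 hr, with 1, 2 and 1 of 5 best with their own number. Between 4 hr and 24 hr the mean was 0.34 for equal and -0.08 for other numbers, but not every pair was above 0.1, so the numbers were not taken as pairs. With the replicate block 23 members were called at 4 hr and 18 at 24 hr, against 584 of all genes at 24 hr. The block added CG9628 and CG9691 and lost CG9135 at 4 hr, and added CG15673, CG10663, CG14230, CG11089, CG10657 and CG8209 at 24 hr. The promoter motif search and the comparison of member proteins were not run. TPM holds no depth, so differences of the low members, 12 of which averaged under 1 TPM without injury, rest on an unknown number of reads.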

Other observations

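A list of 16 genes of nucleolar proteins and ribosome assembly, chosen after the values of CG14230 and CG8545 were seen, was set beside the members. Of its 15 tested genes 9 were called higher at 4 hr and 3 at 24 hr (limma), where 5.76% and 2.26% of all tested genes were. The median difference was 1.59 at 4 hr and 1.11 at 24 hr on the log2(TPM + 1) scale, with 0.31 and 0.51 for all tested genes. Nop56, Nopp140, Ns1 and Non3 met the same conditions on values as the members, as did 3.16% of all tested genes other than CG rows. Nop56, a core protein of small nucleolar ribonucleoproteins, was at a mean of 5.52, 32.6 and 19.2 TPM in uninjured, 4 hr and 24 hr samples. Surf6 was at 23.0, 124 and 45.7 TPM and was called at 4 hr, whereas mbm was at 9.80, 12.5 and 15.6 and was called at neither time.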
